A study of Mus musculus with 12 samples.

Results

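The mitochondrial respiratory chain was described here through 104 genes measured on arrays of whole mouse lung. They are the genes whose symbol on the array begins as those of the subunits and assembly factors of complexes I to V do (Nduf followed by a, b, c, s or v; Sdha to Sdhd with the Sdhaf factors; Uqcr, Uqcc and Cyc1; Cox followed by a digit; Atp5). The pattern matched 106 of the 24704 genes tested, and Ndufa4l2 and Cox4i2, whose induction by hypoxia is known, were left out by the rule. The 104 genes held 6 core and 28 accessory subunits of complex I with 8 of its assembly factors, 8 genes of complex II, 11 of complex III, 17 subunits and 9 assembly factors of complex IV, 13 genes of complex V and 4 pseudogenes. Ndufa4 was counted with complex IV, of which its protein is now known to be a subunit.

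The lungs came from male and female mice aged 10 to 12 weeks that carried floxed Nfat5 alleles (Nfat5fl/fl). Its product NFAT5 controls transcription in the response of cells to osmotic stress. Knockout mice, labelled Nfat5(EC)-/-, lost Nfat5 in endothelial cells (EC) after 1 mg of tamoxifen a day for 5 days, and control mice received the solvent miglyol, so an effect of the deletion cannot be told apart from one of tamoxifen. The promoter that drove the recombinase is not stated in these sources. After 2 to 3 weeks the mice were kept in normoxia or for 21 days in hypoxia, and the 12 arrays fell into control normoxia, control hypoxia, knockout normoxia and knockout hypoxia with 3 arrays each. The labels do not say that each array is a separate animal, so p-values measure the spread between these samples. The submitters left out lungs with contaminating tissue or with an inadequate response to hypoxia.

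The respiratory chain passes electrons from NADH through complex I and from succinate through complex II to ubiquinone, then through complex III and cytochrome c to complex IV, which reduces oxygen to water. The protons pumped on the way drive ATP synthesis by complex V. Most subunits are encoded in the nucleus and a few in mitochondrial DNA, and assembly factors help to build the complexes without staying in them. In lung the chain is known as a candidate oxygen sensor of the pulmonary artery. None of the 13 mitochondrially encoded subunits (0 of 13) was measured, so the values concern nuclear genes only.

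All values are deposited log2 signals and all differences are differences of mean log2 values. Within a group the arrays correlated at 0.989 to 0.994 over all genes, and the median SD of the 104 genes within a group was 0.139 to 0.170, against 0.115 to 0.139 for all genes. Markers of lung epithelium and endothelium were high on every array, with a mean of 12.09 to 12.20 over 8 genes. Nfat5 averaged 9.11 ± 0.25 (SD, n = 3) in normoxia and 8.43 ± 0.24 in hypoxia in control mice, against 8.67 ± 0.11 and 8.34 ± 0.15 in knockout mice. Its difference between knockout and control in normoxia was -0.44 (limma, adjusted p = 0.62), and the position of its probes relative to the deleted exons is unknown here. Y-linked genes averaged over 5 on 2 of the 3 arrays in each normoxia group and on 1 of the 3 in each hypoxia group, so the sexes were not balanced over oxygen. Beside the results below, the arrays differed in markers of other tissues, which are given where they touch a result.

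The genes covered almost the whole range of the array, from Cox7b2 at a mean of 2.70 to Cox6a1 at 12.14. In these lungs 86 of the 104 had a mean of at least 5. The probe sets with the highest means of their role were Ndufs7 (9.74) among the complex I core subunits, which carry the redox centres, Ndufb9 (10.23) among the accessory subunits, Ndufaf3 (7.75) among the complex I assembly factors, Sdha (10.29), the flavoprotein of complex II, Uqcrh (9.77), the hinge protein of complex III, Cox6a1 in complex IV, the copper chaperone Cox17 (8.27) among its assembly factors, and Atp5b (11.27), the catalytic beta subunit of ATP synthase. Those with the lowest means were Ndufs3 (4.90), Ndufb3 (3.22), Ndufaf5 (3.57), Sdhaf4 (4.09), Uqcc2 (4.48), Cox7b2, Cox19 (4.64) and Atp5h (3.21). Signals of different probe sets do not rank transcripts, and a low signal of a housekeeping subunit such as Atp5h says nothing about its abundance.

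**Figure D1:**
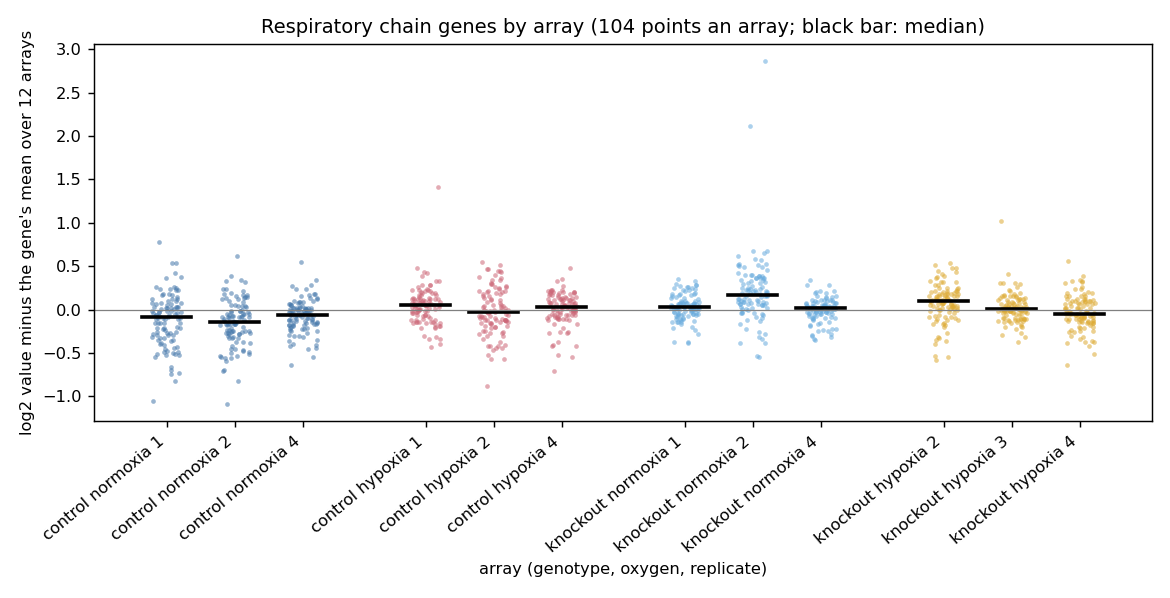
Each point is 1 of the 104 respiratory chain genes on 1 array, drawn as its log2 value minus its own mean over the 12 arrays, with the median of each array as a black bar. The 3 control normoxia arrays have medians of -0.09, -0.14 and -0.06, and the highest median, 0.17, belongs to knockout normoxia 2.

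Set against each gene's own mean, the respiratory chain sat lowest in control normoxia. The median deviation was -0.09, -0.14 and -0.06 on its 3 arrays, 0.05, -0.03 and 0.03 in control hypoxia, 0.03, 0.17 and 0.02 in knockout normoxia, and 0.10, 0.003 and -0.05 in knockout hypoxia, while the median over all genes stayed between -0.009 and 0.008. Knockout normoxia 2 held the highest of the 12 values for 41 of the 104 genes (39.4%), against 7.71% of all genes. Control normoxia 1 and control normoxia 2 each held the lowest value for 25 genes (24%), against 11.6% and 14.3% of all genes. The plot of the genes by array shows these shifts as small beside the spread among the genes.

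Hypoxia in control mice raised 12 respiratory chain genes and lowered 1 (limma with 4 group means, Benjamini-Hochberg over all genes, adjusted p under 0.05). The differences were 0.35 to 0.73 on the log2 scale. The 13 called genes are 12.5% of the 104, beside 11.5% of all genes tested, of which 5.36% were called higher and 6.14% lower. Over genes with a mean of at least 5, the share called was 14% of 86 respiratory chain genes and 20.5% of all 11185. The number called was thus close to or below the background, while the directions were uneven: 73 of the 104 differences were above 0, with a median of 0.15, against 52.3% of all genes and a median of 0.01. The 3 hypoxia arrays did not overlap the 3 normoxia arrays for 38 of the 104, beside 27.7% of all genes. In whole lung, a change in the number of cells of one type and a change in RNA per cell cannot be told apart.

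In complex I, the riser among the core subunits was Ndufs8, an iron-sulfur protein on the path of electrons to ubiquinone. It read 8.07, 8.20 and 8.40 in control normoxia and 8.51, 8.78 and 8.76 in control hypoxia. Its difference was 0.46 ± 0.11 (SE; adjusted p = 0.0205, limma). The accessory subunit Ndufv3 moved further, from 6.72, 6.17 and 6.64 to 7.21, 7.21 and 7.22. The rise was 0.70 ± 0.16, or 1.63-fold (adjusted p = 0.0201), and all 3 hypoxia arrays lay within 0.01 of each other. Ndufa8, an accessory subunit, went from 8.93, 8.77 and 9.02 to 9.25, 9.30 and 9.42, a rise of 0.41 ± 0.11 (adjusted p = 0.03). Ndufaf3, an assembly factor that acts early on the matrix arm, rose by 0.35 ± 0.08 (adjusted p = 0.0172). Ndufa5, an accessory subunit of the same arm, was the gene that fell: it read 7.19, 6.89 and 6.67 in normoxia and 6.46, 6.51 and 6.39 in hypoxia, a difference of -0.46 ± 0.13 (adjusted p = 0.0368). Complex I thus held both directions, with 4 of 42 genes higher and 1 lower, beside 5.36% and 6.14% of all genes.

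Complex III had the most called genes for its size, 4 of 11, all higher, beside 5.36% of all genes called higher. The median difference over its genes was 0.40, and its share rests on few genes. Cyc1, the cytochrome c1 that hands electrons to cytochrome c, rose by 0.38 ± 0.11 (adjusted p = 0.0439), from 6.94, 6.76 and 7.04 to 7.26, 7.41 and 7.22. The small subunit Uqcr10 rose by 0.53 ± 0.15 (adjusted p = 0.0437), but its normoxia arrays spread from 5.49 to 6.24 and its hypoxia arrays only from 6.40 to 6.45. The assembly factors Uqcc2 and Uqcc3, which act in the making of cytochrome b, rose by 0.41 ± 0.09 (adjusted p = 0.0188) and 0.45 ± 0.13 (adjusted p = 0.0497). The core proteins Uqcrc1 (0.40, adjusted p = 0.0583) and Uqcrc2 (-0.01, adjusted p = 0.961) did not pass the test.

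In complex II the called gene was Sdhaf1, which helps to insert the iron-sulfur clusters of the SDHB subunit. It read 5.71, 5.73 and 5.57 in normoxia and 6.00, 6.44 and 6.17 in hypoxia, a rise of 0.54 ± 0.13 (adjusted p = 0.0253). Its client Sdhb differed by 0.22 ± 0.11 (adjusted p = 0.221) and Sdha by 0.03 (adjusted p = 0.912).

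In complex IV only Cox6b1 passed the test. COX6B1 links the monomers of the complex IV dimer on the intermembrane side. Cox6b1 read 7.22, 7.22 and 7.28 in control normoxia and 7.75, 7.81 and 7.89 in control hypoxia. The difference of 0.58 ± 0.10, or 1.49-fold, had the smallest adjusted p of the 104 genes (0.00733). Among the 9 complex IV assembly factors none passed in this comparison, 5 of 9 differences lay below 0, and Cox16 had the lowest (-0.72, adjusted p = 0.0606).

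In complex V 2 of 13 genes rose, beside 5.36% of all genes. Both belong to the central stalk that turns inside ATP synthase. Atp5c1, the gamma subunit of the same stalk, differed by 0.05 ± 0.10 (adjusted p = 0.812). Atp5d, the delta subunit, rose by 0.39 ± 0.11 (adjusted p = 0.0455), from 7.63, 7.75 and 7.85 to 7.92, 8.27 and 8.22. Atp5e, the epsilon subunit, had the largest called difference, 0.73 ± 0.21, or 1.66-fold (adjusted p = 0.0428). Its normoxia arrays were far apart, at 6.78, 6.19 and 7.29, against 7.50, 7.56 and 7.39 in hypoxia. Control normoxia 1 and 2 were the low arrays, and control normoxia 4 came close to the hypoxia group without reaching it.

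**Figure D2:**
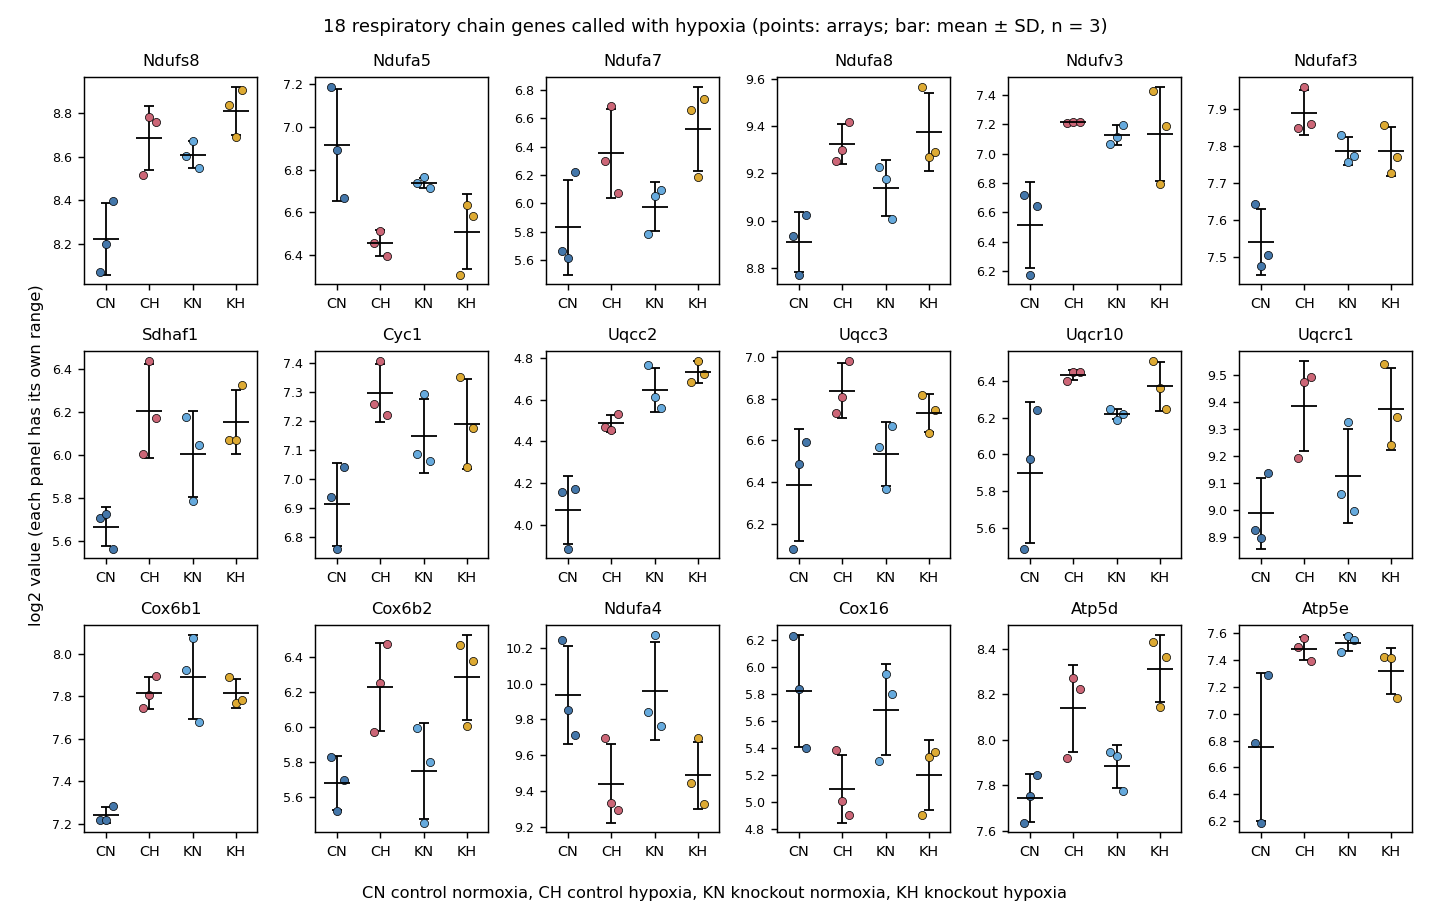
Log2 values of the 18 respiratory chain genes called with hypoxia in control mice or over both genotypes, by group, with each array as a point and the mean ± SD of 3 arrays as a bar. For Cox6b1 the 3 control normoxia points lie at 7.22 to 7.28 and all other points at 7.68 or above.

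The count of 13 rested on few arrays. Without control normoxia 2 or without control hypoxia 2 it fell to 1, the gene still called being Cox6b1 each time (adjusted p = 0.031 and 0.0314). It was 4 without control normoxia 1 and 4 without control hypoxia 4, rose to 21 without control normoxia 4, and was 7, 7 and 8 without knockout normoxia 1, knockout normoxia 4 and knockout hypoxia 4, which enter only through the shared variance. All 13 kept their direction each time. Their median size was 0.976 of the main one without control normoxia 2 and 0.985 without control hypoxia 2. Leaving out an array changes the test for every gene, and the counts over all genes in these fits are not given here. Tested on the 6 arrays compared alone, 2 genes were called.

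Nuclear noncoding RNAs moved with the same comparison. Neat1 read 10.62, 11.04 and 10.15 in control normoxia and 8.95, 8.57 and 8.87 in control hypoxia, and Malat1 fell by 0.96 (adjusted p = 0.00653). The mean of the 10 such RNAs was 5.85 to 6.32 in control normoxia, 5.26 to 5.55 in control hypoxia, 5.69 to 6.11 in knockout normoxia and 5.39 to 5.80 in knockout hypoxia, and 5 of the 10 were called lower in control mice. Over the 12 arrays the 12 risers correlated with that mean at -0.82 to -0.55, and Ndufa5 at 0.83. These signs follow in part from the choice of the genes, since that mean fell in the comparison that chose them. Around the group means the risers' correlations ran from -0.586 to 0.111, with a median of -0.47. There Cox6b1 had 0.111 and Ndufa5 0.544. With that mean as a covariate 0 of the 104 genes were called and 2 of all genes. The 13 differences kept their sign, with a median of 0.46 of their size. The mean of these RNAs did not overlap between the control groups, so this fit cannot fully tell its part from that of hypoxia. The part of these RNAs in the result was not tested beyond this fit.

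The upstream sequences of 2 of the risers and of the heart and muscle isoforms Cox7a1 and Cox8b, described further on, are shown because nuclear respiratory genes are known for binding sites of NRF1, of ETS factors such as GABP, of YY1 and of estrogen-related receptors (ERR). Each run is the 250 bases before the RefSeq transcript start (GRCm38.p6), 5′ to 3′ on the gene's strand, with a match to any of GCGCATGC (NRF1), CCGGAAG (ETS), AAGATGGC (YY1) or TCAAGGTCA (ERR), on either strand, in capitals. Cox6b1 lies at chr7:30626115-30626364 on the minus strand, Ndufa8 at chr2:36049339-36049588 on the minus strand, Cox7a1 at chr7:30183921-30184170 on the plus strand and Cox8b at chr7:140900447-140900696 on the minus strand. 
Cox6b1: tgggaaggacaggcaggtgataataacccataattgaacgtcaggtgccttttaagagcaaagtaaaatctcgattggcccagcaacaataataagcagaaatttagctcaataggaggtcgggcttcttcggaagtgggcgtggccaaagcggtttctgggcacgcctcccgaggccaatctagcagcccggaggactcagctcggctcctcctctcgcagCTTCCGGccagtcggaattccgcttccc
Ndufa8: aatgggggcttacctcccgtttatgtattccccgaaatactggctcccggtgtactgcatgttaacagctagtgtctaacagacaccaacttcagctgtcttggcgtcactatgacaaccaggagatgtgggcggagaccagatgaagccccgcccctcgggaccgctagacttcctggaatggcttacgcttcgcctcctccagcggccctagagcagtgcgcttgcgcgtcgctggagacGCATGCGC
Cox7a1: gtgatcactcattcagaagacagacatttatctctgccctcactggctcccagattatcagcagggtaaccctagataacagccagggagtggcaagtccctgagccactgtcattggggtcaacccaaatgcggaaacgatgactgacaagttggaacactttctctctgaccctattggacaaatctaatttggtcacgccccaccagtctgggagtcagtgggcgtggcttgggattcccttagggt
Cox8b: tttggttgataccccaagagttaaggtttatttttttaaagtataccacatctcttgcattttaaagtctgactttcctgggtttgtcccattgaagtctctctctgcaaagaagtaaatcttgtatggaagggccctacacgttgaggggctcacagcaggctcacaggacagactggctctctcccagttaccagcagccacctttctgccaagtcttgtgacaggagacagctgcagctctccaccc
Cox6b1 held the ETS letters, which begin 28 bases before the start, and Ndufa8 the NRF1 letters, which begin 8 bases before it. Cox7a1 and Cox8b held none of the 4 motifs in these windows. No stated rule chose the 2 risers, so these 4 sequences do not compare risers with isoforms. Of the 14 genes called higher that had a promoter, the ETS letters stood in 4 and the NRF1 letters in 2, over the longer windows below.

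RefSeq promoters of 300 bases, from 250 before to 50 after the start, were matched for 84 of the 104 genes, none of them a pseudogene. The ETS letters stood in 26 of the 84 (31%), against 12.5% of all 18380 genes tested that had a promoter. The YY1 letters stood in 13 (15.5% against 3.56%), the NRF1 letters in 10 (11.9% against 3.91%) and the ERR letters in 2 (2.38% against 0.354%). ACGTG, the core of the element bound by hypoxia-inducible factors, stood in 20 (23.8% against 23.6%). The last 3 ETS letters are the first 3 YY1 letters, so 1 stretch can match both, which occurred in 0 of the 84 and in 1 of all. The mean GC content was 58.3% in the respiratory chain promoters and 55.9% in all. Of the 14 genes called higher with hypoxia in control mice or over both genotypes with a promoter, 4 held the ETS, 2 the NRF1, 1 the YY1 and 6 the ACGTG letters. Matches are letters in a window and not shown sites.

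In knockout mice hypoxia changed none of the 104 genes by the same test (0 called, 15 with an unadjusted p under 0.05), beside 1.14% of all genes. Here and below, shares of all genes called are by adjusted p and give no background for the unadjusted counts. The median difference was -0.05 and 44 of 104 lay above 0, against 50.9% of all genes. The groups did not overlap for 18 genes, beside 19.8% of all genes. The smallest p-values were those of Atp5d, with 7.94, 7.93 and 7.77 in knockout normoxia and 8.43, 8.14 and 8.36 in knockout hypoxia (0.43 ± 0.11, adjusted p = 0.112), of Uqcrc2, a core protein of complex III (-0.35 ± 0.10, adjusted p = 0.145), and of Cox6b2, the testis form of COX6B (0.53 ± 0.17, adjusted p = 0.193). Of the 13 genes called in control mice, 10 had the same sign in knockout mice. Cox6b1 differed by -0.08 ± 0.10, Ndufaf3 by -0.001 ± 0.08 and Ndufv3 by 0.01 ± 0.16. Atp5d, Ndufs8 (0.20 ± 0.11), Ndufa8 (0.24 ± 0.11) and Ndufa5 (-0.23 ± 0.13) had non-overlapping groups in the direction seen in control mice, and Atp5e (-0.21 ± 0.21) in the opposite one. Heart muscle markers moved with this comparison: all 20 were lower in hypoxia, 0 of 20 by the test, and their mean was 6.95 in knockout normoxia and 5.77 in knockout hypoxia. Over the 12 arrays Uqcrc2 correlated with that mean at 0.89, the highest value of the 104 genes, whose median was 0.163. With the heart mean as a covariate the difference of Uqcrc2 was -0.14 (adjusted p = 1). Atp5d and Cox6b2 correlated with the heart mean at -0.472 and -0.718. The part of heart tissue in this comparison was not tested beyond the covariate fit.

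The difference between the genotypes in their hypoxia effect was tested directly by the interaction and called 0 of the 104 genes (limma; 17 with an unadjusted p under 0.05), beside 0.00405% of all genes, which is 1 gene. The median interaction was -0.17 and 29 of 104 lay above 0, against 49.7% of all genes and a median of -0.001. The control normoxia arrays, on which the chain sat lowest, enter this contrast. The smallest p was that of Cox6b1, -0.65 with a 95% interval of -0.96 to -0.35 (adjusted p = 0.574). Sdhb, the iron-sulfur subunit of complex II, followed: it went from 8.41, 8.38 and 8.47 to 8.63, 8.65 and 8.64 in control mice and from 8.72, 9.15 and 8.73 to 8.63, 8.44 and 8.61 in knockout mice. Its groups did not overlap in either genotype and moved in opposite directions, with an interaction of -0.53 (interval -0.87 to -0.19, adjusted p = 0.574). Atp5e did the same, with an interaction of -0.94 (adjusted p = 0.574), and Ndufaf3 had -0.35 (adjusted p = 0.574). All 20 heart muscle markers and 7 of 8 brown fat markers had an interaction below 0 as well, with medians of -1.02 and -0.57, and none passed the test. Sdhb correlated with the heart mean at 0.64 and with the brown fat mean at 0.77. The other 3 named genes correlated less, Cox6b1 at 0.136 and 0.440, Atp5e at 0.028 and 0.372 and Ndufaf3 at -0.155 and 0.180. These means were then used as covariates, each in a fit of its own, with brown fat taken without Cox8b. The interaction of Sdhb was -0.37 and -0.33, and the median of the 104 genes was -0.12 and -0.07. The part of these tissues in the interaction was not tested beyond these fits.

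**Figure D3:**
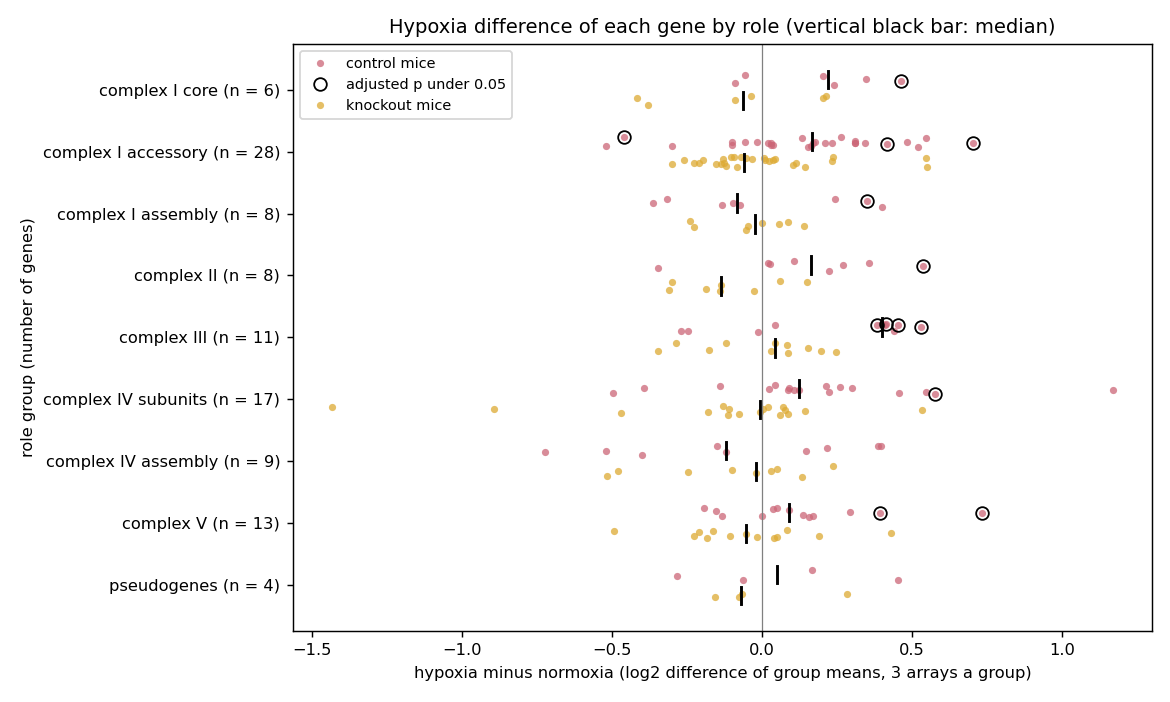
Hypoxia minus normoxia of each gene on the log2 scale, by role, in control mice (upper row of each role) and knockout mice (lower row), with circles for adjusted p under 0.05 and vertical bars for medians. The control median of complex III is 0.40 and the knockout median 0.04, and all circled points belong to control mice.

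Averaged over both genotypes, hypoxia raised 10 of the 104 genes and lowered 3. That is 12.5%, beside 14.7% of all genes (7.27% higher and 7.4% lower), and 14% of the 86 with a mean of at least 5, beside 26.7% of all such genes. Of the 13, 8 were also called in control mice alone. Those called only in the average were Cox6b2, Ndufa7, Uqcrc1, Cox16 and Ndufa4. Cox6b2 had the largest rise, 0.54 ± 0.12 (adjusted p = 0.0133), from 5.45 to 6.00 over the 6 normoxia arrays to 5.97 to 6.47 over the 6 hypoxia arrays. Ndufa7, an accessory subunit of complex I, rose by 0.53 ± 0.14 (adjusted p = 0.0292), and Atp5d by 0.41 ± 0.08 (adjusted p = 0.00732), the smallest adjusted p of this comparison.

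The 3 genes that fell were Ndufa4, Ndufa5 and Cox16. Ndufa4 read 10.24, 9.85 and 9.71 in control normoxia, 9.69, 9.33 and 9.29 in control hypoxia, 9.84, 10.27 and 9.76 in knockout normoxia and 9.44, 9.69 and 9.33 in knockout hypoxia. Its difference was -0.48 ± 0.12 (adjusted p = 0.0244), 1.40-fold lower in hypoxia. Ndufa4l2, the paralog that is known to rise in hypoxia and that the rule left out, rose by 0.81 (adjusted p = 0.00303), while Cox4i2, the lung and hypoxia form of COX4, differed by 0.18 (adjusted p = 0.471). Cox16, which helps to insert copper into COX2, fell by 0.60 ± 0.16 (adjusted p = 0.028), and Ndufa5 fell by 0.34 ± 0.09 (adjusted p = 0.0248).

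The other extremes of each role did not pass. Among the largest differences were Uqcr10 in complex III (0.34, adjusted p = 0.0537), Ndufaf8 among the complex I assembly factors (0.27, adjusted p = 0.216) and Cox19 among those of complex IV (0.31, adjusted p = 0.251). The lowest were Ndufs1, the largest core subunit of complex I (-0.25, adjusted p = 0.233), Ndufaf4 (-0.30, adjusted p = 0.122), Sdhaf3 (-0.14, adjusted p = 0.475), Uqcrh (-0.27, adjusted p = 0.0655) and Atp5mpl (-0.25, adjusted p = 0.28). Heart muscle markers moved with this comparison too: all 20 were lower in hypoxia, 2 of 20 by the test, and with their mean as a covariate 0 of the 104 genes were called. In that fit all 13 differences kept their sign, with a median of 0.803 of their size. Without knockout normoxia 2, the array with the highest heart markers, 6 were called. Leaving out the other arrays that moved the count by over 1.5 times gave 7, 6, 6 and 5 (control normoxia 1 and 2, control hypoxia 2 and 4) and 6 and 7 (knockout hypoxia 2 and 4). The part of heart tissue in the result was not tested beyond the covariate fit.

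Between the genotypes no respiratory chain gene was called. In normoxia 0 of 104 passed (24 with an unadjusted p under 0.05), beside 0.00405% of all genes. In hypoxia 0 passed (4 unadjusted), beside 0%, and over both oxygen states 0 passed (13 unadjusted), beside 0%. These shares are by adjusted p, so the unadjusted counts have no background beside them. The directions in normoxia were nevertheless uneven, with 88 of the 104 differences above 0 and a median of 0.16, against 48.8% of all genes and a median of -0.004. All 6 core subunits of complex I, 10 of 11 complex III genes and 16 of 17 complex IV subunits were higher in the knockout means. Several of these complex IV differences were very small. The assembly factors were less one-sided: those of complex I averaged 5.343 in control and 5.432 in knockout normoxia, and those of complex IV 6.382 and 6.416. The arrays did not overlap for 25 genes, beside 11.7% of all genes. All 20 heart muscle markers and all 8 brown fat markers were higher in the knockout means too, with medians of 0.68 and 0.35. With the heart mean as a covariate 79 of the 104 differences lay above 0 and the median was 0.12, and with the brown fat mean 82 and 0.11. This comparison uses the control normoxia arrays that also serve as the baseline of hypoxia in control mice, so the directions of the 2 comparisons are not independent. In hypoxia 52 of 104 differences lay above 0, and the groups did not overlap for 11 genes, beside 9.74% of all genes.

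The smallest p-values in normoxia were those of Cox6b1, Uqcc2 and Sdhb. Cox6b1 read 7.92, 8.07 and 7.68 in knockout normoxia against 7.22, 7.22 and 7.28 in control normoxia, a difference of 0.65 ± 0.10 (adjusted p = 0.258). Uqcc2 read 4.76, 4.61 and 4.56 against 4.16, 3.89 and 4.17 (0.57 ± 0.09, adjusted p = 0.316), and Sdhb differed by 0.45 ± 0.11 (adjusted p = 0.564). In all 3 the groups did not overlap. In hypoxia the smallest p-values were those of Atp5j (0.30, adjusted p = 0.947), Uqcc2 (0.24, adjusted p = 0.947) and the pseudogene Atp5c1-ps (0.33, adjusted p = 0.947), and over both states those of Uqcc2 (0.41, adjusted p = 0.415), Cox6b1 (0.33, adjusted p = 0.754) and Ndufs8 (0.25, adjusted p = 1). Without knockout normoxia 2 the normoxia count above 0 was 81 and the median 0.10.

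The tissue isoforms of complex IV differed in how much they varied over the 12 arrays. Cox6a1, the general form of COX6A, stayed between 12.02 and 12.37 on all arrays and Cox8a between 9.66 and 10.09. Cox4i1 ranged from 8.59 to 9.01, Cox7a2 from 6.13 to 6.73 and Cox7a2l, which takes part in supercomplexes, from 4.63 to 5.77. Their differences with hypoxia in control mice were 0.09, 0.02, 0.12, 0.04 and 0.46, and none passed the test. Cox7b (2.58 to 3.44), Cox7b2 (2.56 to 2.77) and the testis form Cox8c (2.77 to 3.12) stayed near the lower end of the array.

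Cox8b, the heart, muscle and brown fat form of COX8 that is well known as a brown fat marker, had the widest range of the chain. It read 4.33, 4.69 and 4.76 in control normoxia, 6.80, 5.37 and 5.12 in control hypoxia, 5.02, 8.25 and 5.68 in knockout normoxia and 4.81, 5.09 and 4.75 in knockout hypoxia. The high values were those of knockout normoxia 2 and control hypoxia 1. None of its differences passed: 1.17 ± 0.67 with hypoxia in control mice (adjusted p = 0.287), -1.43 ± 0.67 in knockout mice (adjusted p = 0.404) and 1.73 ± 0.67 between genotypes in normoxia (adjusted p = 0.648). Cox7a1, the heart and muscle form of COX7A, read 8.04 in knockout normoxia 2 and 5.10 to 6.09 on the other 11 arrays, and differed by 0.94 ± 0.48 between genotypes in normoxia (adjusted p = 0.712). Cox6a2, the muscle form of COX6A, ranged from 6.97 to 7.92 in no order of the groups.

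Knockout normoxia 2 stood out for markers of brown fat and heart, and control hypoxia 1 for those of brown fat but not of heart (mean 6.131). Ucp1, the uncoupling protein of brown fat, read 9.31 in knockout normoxia 2, 7.66 in control hypoxia 1 and 3.35 to 4.28 on the others. The mean of the 8 brown fat markers, of which Cox8b is one, was 4.18 to 4.33 in control normoxia, 4.40 to 5.62 in control hypoxia, 4.37 to 6.39 in knockout normoxia and 4.19 to 4.33 in knockout hypoxia. All 8 had a higher mean in knockout than in control normoxia, and 0 of 8 passed the test. Nppa, the atrial natriuretic peptide, read 11.94 in knockout normoxia 2, 9.41 in knockout normoxia 4 and 6.60 to 8.44 on the others. The mean of the 20 heart muscle markers was 5.99 to 6.70, 6.13 to 6.23, 6.03 to 7.90 and 5.48 to 6.03 in the 4 groups in the same order. No marker of either list is at 0 on this scale, which has a floor near 2.41. The part of these tissues in the values was not tested. Over the 12 arrays 23 of the 104 genes correlated above 0.5 with the heart mean and 29 with the brown fat mean, none of them among the 12 genes that rose with hypoxia in control mice. Those 12 correlated with the heart mean at -0.47 to 0.14, with the brown fat mean at -0.17 to 0.44 and with the skeletal muscle mean at 0.09 to 0.75. For skeletal muscle 5 of the 12 were above 0.5, beside 16 of the 104. However, 9 of the 10 skeletal muscle markers had a mean below 5, and around the group means the risers' median correlation was 0.066. Of the 13 genes called in control mice, 8 were still called with the heart mean as a covariate and 10 with the brown fat mean taken without Cox8b.

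**Figure D4:**
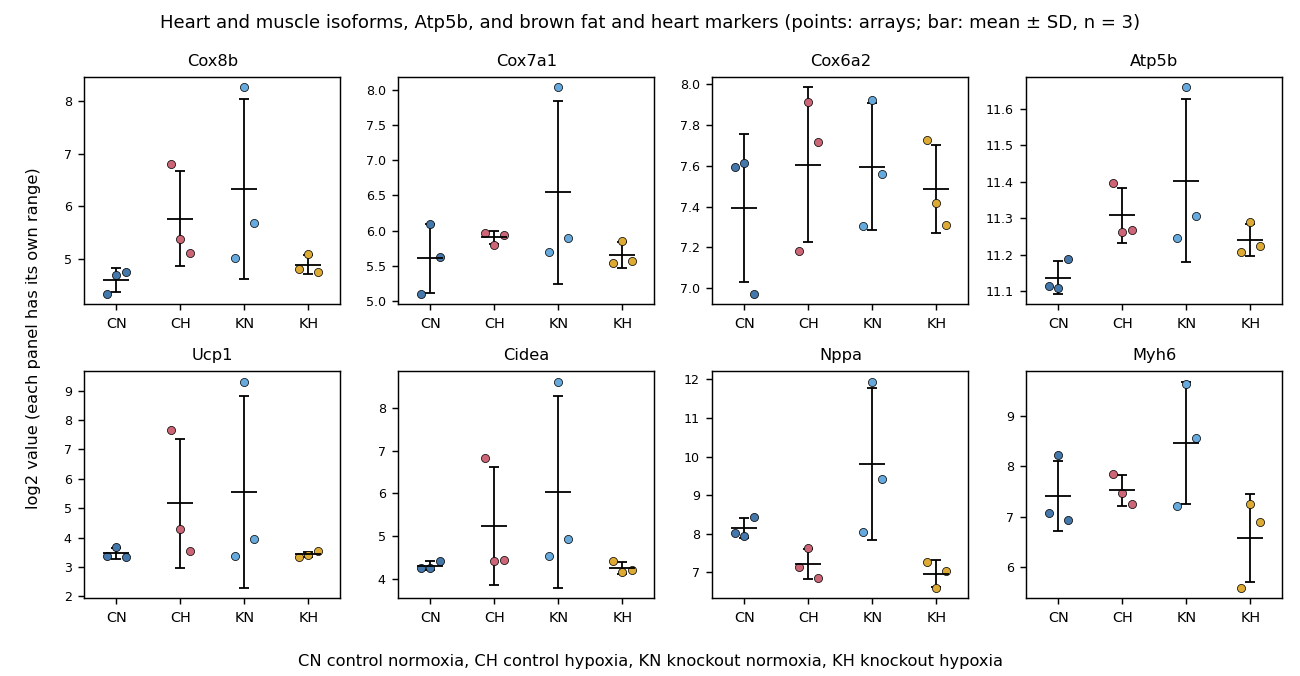
Log2 values by group for the isoforms Cox8b, Cox7a1 and Cox6a2, for Atp5b, and for the brown fat markers Ucp1 and Cidea and the heart markers Nppa and Myh6, with each array as a point and the mean ± SD of 3 arrays as a bar. Knockout normoxia 2 is the highest point for Cox8b (8.25), Cox7a1 (8.04), Ucp1 (9.31) and Nppa (11.94).

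The genes whose values over the 12 arrays were most like those of Cox8b were Cidea, a lipid droplet protein of brown fat (Pearson r = 0.97), Gpd1, the glycerol phosphate dehydrogenase (0.97), and Atp5b (0.97). Atp5b thus had a range of only 11.11 to 11.66 but followed Cox8b closely, with its highest value in knockout normoxia 2 and the next, 11.40, in control hypoxia 1. Those nearest to Cox7a1 were Paqr9 (0.96), Srl (0.94), the sarcalumenin of muscle, and Bmp10 (0.92), a growth factor of the heart atria. Those nearest to Cox6a2 were 8430422H06Rik (0.88), Olfr126 (0.87) and Pmm2 (0.87). The 12 arrays share their group structure and the values of 1 or 2 arrays, so these correlations are descriptions.

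The pseudogene probe sets can share sequence with the genes they copy, and their values are uncertain for that reason. None of the 4 was called with hypoxia. Cox5b-ps had the largest difference in control mice, 0.45 (adjusted p = 0.0989).

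Genes that build or serve the chain outside the symbol pattern were read alongside. Of 26 further assembly factors, 1 rose with hypoxia in control mice, Coa3 (0.50, adjusted p = 0.0169), which helps COX1 translation and stability, and 5 rose over both genotypes, 0 falling. The shares are 3.85% and 19.2%, beside 11.5% and 14.7% of all genes. These were Foxred1, Ecsit, Higd2a, Coa7 and Coa3. Of 18 electron carriers and coupling partners, such as the ubiquinone synthesis genes and the electron transfer flavoproteins, 0 were called in either comparison (4 and 5 with an unadjusted p under 0.05). Of 15 regulators of mitochondrial biogenesis, 1 rose and 3 fell in control mice (26.7%, beside 11.5% of all genes). Esrra, the estrogen-related receptor alpha, rose by 0.47 (adjusted p = 0.0342), and its coactivator Ppargc1a fell by 0.58 (adjusted p = 0.0334), as did Tfb2m, a mitochondrial transcription factor (0.62, adjusted p = 0.0427), and Ssbp1, which binds mitochondrial DNA (0.78, adjusted p = 0.0422). Ppargc1a is also a brown fat marker here. Over both genotypes Gabpa, the DNA-binding ETS subunit, fell by 0.42 (adjusted p = 0.0244) with Ppargc1a and Ssbp1. Of the 9 hypoxia-linked switches, Ndufa4l2 rose in both comparisons and the mitophagy receptor Fundc1 fell over both genotypes (0.31, adjusted p = 0.0471).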

How the data were processed

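Total RNA of perfused whole lung was hybridised as biotin-labelled cRNA to 12 Affymetrix arrays, 3 in each of 4 groups. The deposited values are log2 signals, made by the authors with RMA per the submitters' processing notes; the sorted values are the same on every array, so no further normalization was applied. Depth does not apply to arrays, and their number limits the precision. Of 25428 probe sets 24705 had 1 gene symbol in the platform annotation and 723 had none, and the probe set with the highest mean stood for a symbol, which left 24704 genes. The main fit kept genes of any signal. limma 3.58.1 in R 4.3.3 was fitted with 4 group means (8 residual degrees of freedom) and 7 contrasts, with Benjamini-Hochberg adjustment over all genes and calls at 0.05. In the text, adjusted p-values are those of this fit, and errors of differences are its standard errors. Simulated arrays with known shifts were tested for hypoxia in control mice over 24704 genes, with 100 genes shifted at each size. There 38% of shifts of 0.5 and 83% of shifts of 1 were recovered, with 8 false among 129 called. The measured comparison called 2839 genes, so its adjusted threshold was less strict and these shares are not its power.

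Named genes are the called members (up to 12 a direction) and the 3 smallest p-values where fewer than 3 were called. Every complex IV isoform, the extremes of each role and the 3 nearest genes of the heart and muscle isoforms are named too. Atp5c1, Sdha, Uqcrc1, Uqcrc2 and Cox5b-ps in control mice, and the genes named from the other lists, were named after their values were seen. The members and the lists were chosen with earlier results of these data known. Skeletal muscle markers (1 of 10 called higher, Acta1) and thymus markers (0 of 4) were read for hypoxia in control mice. White and common fat markers had 2 of 9 called there, both higher, beside 11.5% of all genes. They were Cidec (1.349, limma, adjusted p = 0.0195) and Pnpla2 (0.471, adjusted p = 0.0205). The mean of the 9 was 6.136 to 6.279 in control normoxia and 6.392 to 7.789 in control hypoxia, highest on control hypoxia 1. No fit used this mean as a covariate. Promoters came from RefSeq (GRCm38.p6) and were matched by gene ID. Alternatives changed the covariates, arrays, filter, variance prior and probe-set rule. A brown fat covariate was chosen after seeing the data, and in every fit it was the mean of the brown fat markers other than Cox8b.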

Additional observations from a re-analysis of the deposited data

How the results depend on the processing

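The 13 genes called with hypoxia in control mice kept their direction under every alternative that gave them a value (Uqcc2 had none with only genes of a mean of at least 5), but their number did not hold. It was 20 with only genes of a mean of at least 5 tested, 2 on the compared arrays alone, 0 with the nuclear noncoding RNA mean as a covariate, and 1 to 21 with 1 array left out. The count over both genotypes was 0 with the nuclear noncoding RNA mean and 0 with the cardiac muscle mean as covariates, where all 13 kept their sign with a median of 0.562 and 0.803 of their size, and 5 to 18 with 1 array left out. The count in knockout mice was 1 on the compared arrays alone and 0 to 1 with 1 array left out. With the replicate block it was 7 in control mice and 7 over both genotypes. The replicate numbers were not taken to pair arrays, since same-numbered arrays correlated at -0.248 to 0.277 around their group means and only 4 of 15 pairs were over 0.1. The replicate block changed no other count. The cause of these changes was not tested. Apart from the noncoding RNA covariate in control mice, the matching counts over all genes are not given here. The comparisons between genotypes and the interaction called 0 of the 104 genes in every alternative.

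Sign changes were limited to uncalled differences. With the nuclear noncoding RNA mean as a covariate the difference over both genotypes was 0.243 for Atp5mpl, -0.278 for Cox19, 0.072 for Ndufaf4, -0.106 for Ndufaf8, 0.108 for Ndufs1 and 0.092 for Sdhaf3, and that in control mice was -0.143 for Cox4i1, -0.224 for Cox7a2l and -0.033 for Cox8a. With the brown fat mean the control difference was -0.149 for Cox7a1, -0.017 for Cox7a2 and -0.034 for Cox7b. With the cardiac muscle mean the knockout difference was 0.496 for Cox7a1 and 0.245 for Cox8b. Cox7b had -0.090 without control hypoxia 1 and knockout normoxia 2 together. With 1 array left out the control difference was -0.051 to 0.111 for Cox7a2, -0.090 to 0.276 for Cox7b and -0.083 to 0.101 for Cox8a, and Cox7a2 had -0.004 and Cox8a -0.066 without control hypoxia 4. Of 1457 values of the 65 gene tests, 1191 kept their direction and side of the threshold, 231 lost the call, 15 gained it and 20 changed sign. Differences of about 0.5 were found in 38% of simulated cases. That simulation called 129 genes, against 2839 in the measured comparison of hypoxia in control mice. Its adjusted threshold was therefore stricter, and the 38% is not the power of the measured test.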
